A study of Homo sapiens with 11 samples.

Results

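The 3 D-type cyclin genes (CCND1, CCND2 and CCND3), the transcription factor gene MYC and 4 genes for inhibitors of cyclin-dependent kinases (CDKN1A, CDKN1B, CDKN1C and CDKN2C) were followed in HEK293T cells. They were taken by gene name, 8 of the 38021 genes in the count table, and all 8 passed the filter on low counts. HEK293T is an established human embryonic kidney line, here of wild-type genotype in the labels. All cells were treated for 6 h. The conditions were vehicle (0.1% DMSO), thapsigargin (Tg, 500 nM), AA147 at 10 µM, and AA132 at 0.1, 0.3, 1, 3, 6, 10, 15 or 30 µM. Thapsigargin inhibits the pump that loads calcium into the endoplasmic reticulum (ER) and so causes ER stress. AA147 and AA132 are compounds studied for their action on protein folding in the ER.

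D-type cyclins bind the kinases CDK4 and CDK6, and the resulting complexes phosphorylate the retinoblastoma protein RB, which frees E2F factors to drive entry into S phase. The CIP/KIP inhibitors p21 (CDKN1A), p27 (CDKN1B) and p57 (CDKN1C) act on several cyclin-CDK complexes, and p18 (CDKN2C) is an INK4 inhibitor that binds CDK4 and CDK6. MYC drives genes of growth and ribosome production, and the mRNAs of CCND1, MYC and CDKN1A are short-lived. Cyclin D1 protein is known to be lost during ER stress when translation is reduced, which RNA sequencing does not measure. HEK293T cells carry the adenoviral E1A and E1B genes and the SV40 large T antigen, proteins that bind RB or p53, and this limits the line as a model of the cell cycle.

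CDKN1A rose under AA132 and CDKN1B under Tg, and the 250 bases before their annotated start sites are shown for that reason. The sequences are from RefSeq on GRCh38.p14, and promoter windows were read for 4 of the 8 members (CCND3, CDKN1A, CDKN1B and CDKN2C). Whether the promoter table holds the other members is not reported here. Both lie on the plus strand, CDKN1A at chr6:36678464-36678713 and CDKN1B at chr12:12717118-12717367. Capitals mark the GC box GGGCGG, the CCAAT box CCAAT and the TATA box TATAAA.
CDKN1A: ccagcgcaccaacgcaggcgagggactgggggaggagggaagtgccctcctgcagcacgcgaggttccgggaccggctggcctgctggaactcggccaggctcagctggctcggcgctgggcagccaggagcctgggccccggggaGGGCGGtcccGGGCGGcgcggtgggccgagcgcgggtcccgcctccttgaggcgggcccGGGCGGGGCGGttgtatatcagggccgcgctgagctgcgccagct
CDKN1B: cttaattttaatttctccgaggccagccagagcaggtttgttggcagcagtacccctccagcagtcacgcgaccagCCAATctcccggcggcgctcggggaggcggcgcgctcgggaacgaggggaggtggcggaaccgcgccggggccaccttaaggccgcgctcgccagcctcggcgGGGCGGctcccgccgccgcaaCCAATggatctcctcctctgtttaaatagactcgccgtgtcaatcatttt
The CDKN1A window has a GC content of 76.4% and holds 4 GC boxes, which begin 104, 94, 45 and 40 bases before the start site. The last 2 overlap. The CDKN1B window has a GC content of 64.4% and holds 1 GC box, 71 bases before the start site, and 2 CCAAT boxes, 174 and 50 bases before it. On both strands, a GC box was in 42.5% and a CCAAT box in 32% of 34941 promoter windows of this length. Neither window held TATAAA, the E-box CACGTG that MYC binds, TGACGTG (a core of XBP1s and ATF6 sites), the ER stress response element (ERSE) or TGATGNAA (a pattern of ATF4 sites). These were in 10.8%, 6.32%, 1.69%, 0.0744% and 3.15% of windows. TGACNNNGC, the pattern of antioxidant response elements, was in 10.9% of windows, and the CDKN1B window held 1 match on the minus strand, 17 bases before the start site. A match is a description of the letters and does not show that a factor binds.

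The deposited table holds 3 numbered columns for each condition, 33 in all, while the labels list 11 samples. Each column is called a library here and n counts libraries. Whether they are separate cultures is not stated, so p-values measure the spread between these columns, which may be technical. Library totals ran from 32.27 M to 37.96 M counts, with the lowest in AA132 10 µM library 3 and the next lowest at 36.36 M. Vehicle library 1, AA147 library 1 and AA132 10 µM library 1 stood apart from the other 2 libraries of their condition. Their pairs had a chi-square per degree of freedom of 46.2 and 59.4, 22.2 and 23, and 33.7 and 36.1, against 7.47, 4.83 and 6.52 for the remaining pair. AA132 30 µM library 3 (13.4 and 18.8, against 6.46), AA132 1 µM library 1 (13.6 and 14.1, against 5.71) and AA132 0.1 µM library 2 (10.3 and 11.4, against 4.5) did so less. All pairs were above the value near 1 that counting error gives, the lowest being 4.48, so the 33 columns were kept as separate libraries. The HEK293T markers NEFL (46 to 76.9 CPM, the counts scaled to library size), NEFM (37.1 to 59.9) and LIN28B (9.99 to 22.6) were present in every library, and PAX2 was low (0.407 to 1.53). Markers of blood (PTPRC), endothelium (PECAM1), hepatocytes (ALB) and erythroid cells (HBB) were at 0 in 29, 25, 25 and 30 of 33 libraries. Of the fibroblast markers, DCN was at 0 in 31 libraries, while COL1A1 ran from 19.7 to 49.9 CPM. In bulk RNA, fewer cells of a kind and less RNA per cell cannot be told apart.

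Per kilobase of transcript, the vehicle level was highest for CDKN2C (45.3 CPM per kb), CDKN1A (30.8) and CCND3 (25.7). CDKN1B followed at 16.6, CCND1 at 8.28 and MYC at 5.44 CPM per kb. CCND2 (1.19) and CDKN1C (0.997) were the lowest. CCND3 was therefore the main D cyclin transcript in these cells. Levels below are CPM of a gene, compared between conditions only, unless given per kb. Gene positions are those of GENCODE v44 (GRCh38).

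Tg was set against vehicle as the ER stress treatment of the series. CCND1 fell by 46.1% and CCND2 rose 1.63-fold, and of the inhibitors CDKN1B rose while CDKN1C and CDKN2C fell. CCND3, MYC and CDKN1A were not called. In all, 5 of the 8 members were called at an adjusted p under 0.05 (2 higher, 3 lower), where 31.2% of the 17793 genes tested were called (16.2% higher and 15% lower). The libraries of Tg and vehicle did not overlap for 6 members, against 38.2% of all genes. Adjusted p-values are those of edgeR's quasi-likelihood test over all genes tested.

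**Figure D1:**
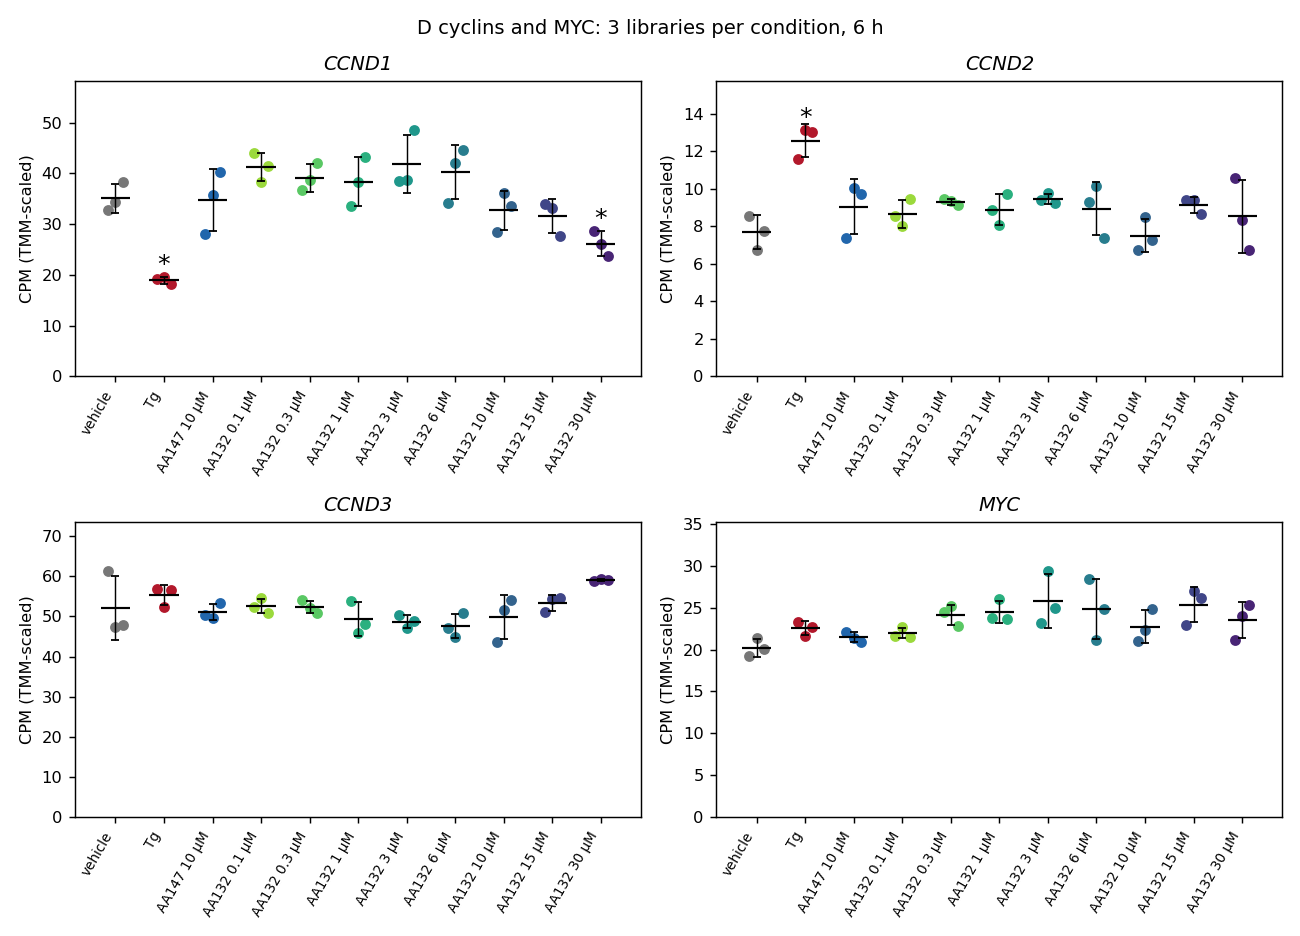
CPM of CCND1, CCND2, CCND3 and MYC in each of 33 libraries (points), by condition, with the mean (line) and SD (bars, n = 3) and a star where the adjusted p against vehicle was under 0.05. CCND1 sat between 18.2 and 19.5 CPM under Tg, below every other library, and CCND2 was highest under Tg.

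CCND1 (chromosome 11, 69641156 to 69654474, 5 exons) encodes cyclin D1, the D cyclin most tied to growth signals. Its level was 32.7, 34.3 and 38.3 CPM in the vehicle libraries and 19.2, 19.5 and 18.2 CPM under Tg. Every Tg library lay below every library of the other 10 conditions. CCND1 fell from 35.1 ± 2.88 to 18.9 ± 0.69 CPM (SD, n = 3), a log2 fold change of -0.89 (SE 0.12, 95% interval -1.14 to -0.64, adjusted p = 6.63e-07). Without vehicle library 1 it was -0.95 (adjusted p = 4.15e-07). CCND1 shares 497 exon bases with LTO1, a gene on the other strand listed in the table under its older name ORAOV1, and whether counting used strand is not stated. ORAOV1 was at 9.38 CPM in vehicle and 9.98 CPM under Tg (log2 fold change 0.09, adjusted p = 0.635).

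CCND2 (chromosome 12, 4269771 to 4305353, 5 exons), the gene of cyclin D2, moved the other way. It was 8.56, 6.76 and 7.77 CPM in vehicle and 11.6, 13.1 and 13.0 CPM under Tg, and no library of another condition reached the Tg range. The mean rose to 12.6 ± 0.88 from 7.70 ± 0.90 CPM, by 0.71 in log2 (SE 0.14, adjusted p = 0.000113), and by 0.79 without vehicle library 1 (9.19e-05). CCND2 shares 162 exon bases with the antisense gene CCND2-AS1 and 999 with an unnamed protein-coding gene model on its own strand, so reads there cannot be assigned with certainty.

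CCND3 (chromosome 6, 41934934 to 42050357, 5 exons), the gene of cyclin D3, was 61.4, 47.3 and 47.9 CPM in vehicle and 56.8, 52.4 and 56.7 CPM under Tg. The groups overlapped because of vehicle library 1, and the difference was not called (log2 fold change 0.09, 95% interval -0.08 to 0.25, adjusted p = 0.472). Without vehicle library 1 it was called (0.21, adjusted p = 0.0331).

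The 3 cyclins were also summed on the per-kilobase scale. The sum was 35.2 ± 3.62 CPM per kb in vehicle and 33.7 ± 1.05 under Tg (SD, n = 3, two-sided exact permutation p = 0.9). The share of CCND1 in that sum was 23.7 ± 3.68% in vehicle and 13.3 ± 0.83% under Tg, with no overlap (exact permutation p = 0.1, the smallest that 3 against 3 allows). The share of CCND2 was 3.36 ± 0.17% and 5.76 ± 0.53%, and that of CCND3 72.9 ± 3.73% and 81.0 ± 1.17%, each at the same smallest p. The shares are parts of 1 whole, so they are not separate results, and the sum mostly follows CCND3. The log2 ratio of CCND1 to CCND2 (CPM over CPM) was 2.19 ± 0.23 in vehicle and 0.591 ± 0.13 under Tg. Shares, sum and ratios make 6 quantities in 10 comparisons with vehicle each, none of which can pass 0.05 by this test.

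MYC (chromosome 8, 127735434 to 127742951, 3 exons) was 19.3, 21.4 and 20.0 CPM in vehicle and 23.3, 21.6 and 22.7 CPM under Tg. The libraries did not overlap, but the difference was small and not called (log2 fold change 0.16, 95% interval -0.04 to 0.35, adjusted p = 0.23). MYC shares 194 exon bases with the antisense transcript CASC11.

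Among the inhibitors, CDKN1C (chromosome 11, 2883213 to 2885775, 4 exons), an imprinted gene for p57, had the largest fold change under Tg. It was 2.08, 1.76 and 1.46 CPM in vehicle (75, 65 and 55 counts) and 0.543, 0.983 and 0.626 CPM under Tg (20, 36 and 23 counts). All 3 Tg libraries lay below all vehicle libraries. The log2 fold change was -1.30 (SE 0.29, 95% interval -1.88 to -0.72, adjusted p = 0.000591), and -1.17 without vehicle library 1 (0.00402). The low counts leave its size uncertain.

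CDKN1B (chromosome 12, 12685498 to 12722369, 3 exons), whose protein p27 holds cyclin-CDK2 inactive in resting cells, rose under Tg. Its libraries read 36.9, 39.1 and 44.04 CPM in vehicle and 49.1, 46.7 and 53.1 CPM under Tg, without overlap (log2 fold change 0.31, SE 0.10, adjusted p = 0.0135). The call was lost without vehicle library 1 (adjusted p = 0.0671) or Tg library 3 (0.098), and in a fit of only the 2 conditions compared (0.0607).

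CDKN2C (chromosome 1, 50960745 to 50974634, 2 exons) fell slightly, from 49.5, 45.1 and 40.8 CPM in vehicle to 38.2, 37.6 and 39.1 CPM under Tg (log2 fold change -0.24, SE 0.07, adjusted p = 0.0093). Vehicle library 1 was the highest of all 33 libraries, and without it the call was lost (-0.17, adjusted p = 0.0697). A fit of only the 2 conditions compared lost the call as well (-0.24, adjusted p = 0.128).

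CDKN1A (chromosome 6, 36676460 to 36687337, 3 exons), the gene of p21 and a target of p53, was 72.5, 59.4 and 63.6 CPM in vehicle and 69.0, 71.5 and 67.5 CPM under Tg. These ranges overlapped and the difference was not called (log2 fold change 0.09, 95% interval -0.09 to 0.27, adjusted p = 0.468).

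**Figure D2:**
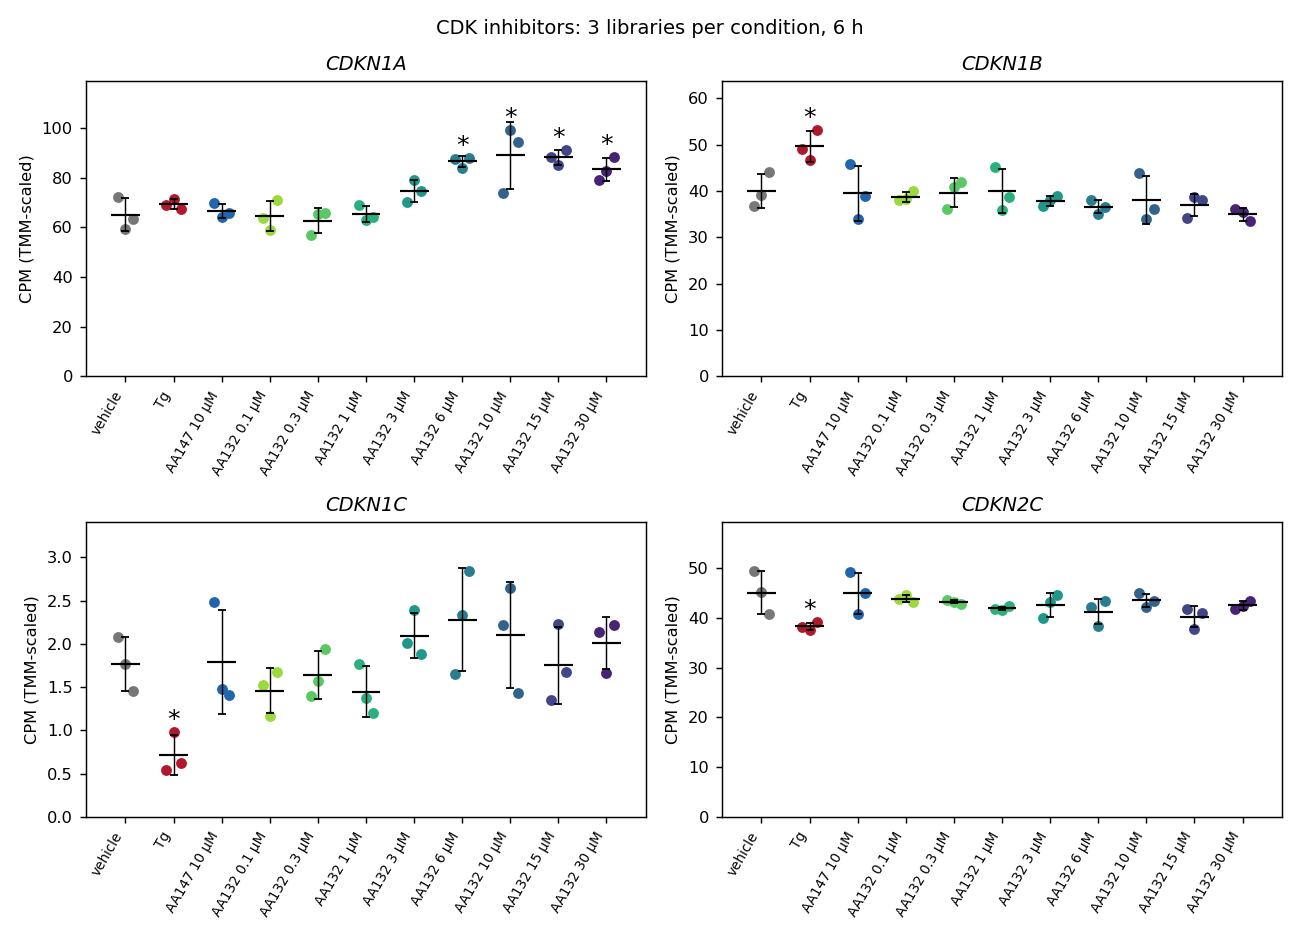
CPM of CDKN1A, CDKN1B, CDKN1C and CDKN2C in each of 33 libraries (points), by condition, with the mean (line) and SD (bars, n = 3) and a star where the adjusted p against vehicle was under 0.05. CDKN1A stood at 73.9 to 99.2 CPM from 6 to 30 µM AA132, while the Tg libraries were apart for CDKN1B and CDKN1C.

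AA132 was tested against vehicle at each dose, and a slope on log10 dose was fitted over its 24 libraries without vehicle. CDKN1A was the member that rose, from 6 µM upwards, and CCND1 fell at 30 µM. Of the 8 members, none was called at 0.1, 0.3, 1 or 3 µM, where 0%, 0%, 0% and 0.118% of all genes were called. At an unadjusted p under 0.05, edgeR gave 0, 1, 1 and 4 members at these doses, and DESeq2 called none of them. Over all 17793 genes at these doses, 796, 981, 1057 and 1635 had an unadjusted p under 0.05, and DESeq2 called 1, 7, 0 and 74. CDKN1A alone was called at 6, 10 and 15 µM, against 1.07%, 1.41% and 2.76% of all genes (0.866%, 1.03% and 1.97% higher). CDKN1A and CCND1 were called at 30 µM (7.05% of all genes, 3.86% higher and 3.19% lower). The slope was called for the same 2 members, higher for CDKN1A and lower for CCND1, where 18.7% of 17554 genes were called (9.83% higher and 8.89% lower). All these comparisons with vehicle, and those of Tg and AA147, use the same 3 vehicle libraries.

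CDKN1A was between 57.0 and 70.9 CPM in the 9 libraries of 0.1 to 1 µM. It was 70.4, 79.2 and 74.7 CPM at 3 µM and 87.8, 84.0 and 88.2 CPM at 6 µM. At 10 µM it was 73.9, 99.2 and 94.4 CPM, at 15 µM 88.4, 85.1 and 91.3 CPM, and at 30 µM 79.3, 82.9 and 88.5 CPM. From 6 µM on, all 12 libraries lay above the highest vehicle library at 72.5 CPM, with AA132 10 µM library 1 the closest to it.

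The CDKN1A log2 fold change against vehicle was 0.20 at 3 µM (SE 0.09, adjusted p = 0.464). At 6 µM it reached 0.41 (adjusted p = 0.00767), followed by 0.45 (0.00191), 0.44 (0.00207) and 0.36 (0.00793) at the 3 higher doses, with an SE of 0.09 for each. The means of these 4 doses, 83.6 to 89.2 CPM, were 1.28 to 1.37 times the vehicle mean of 65.2 ± 6.68 CPM by the fit. Their libraries overlapped one another, so no order among these doses was resolved. The slope was 0.23 in log2 per 10-fold dose (SE 0.03, adjusted p = 1.27e-06). The call at 6 µM was lost without vehicle library 2 (adjusted p = 0.0543). In a fit of only the 2 conditions compared, none of the calls at 6, 10, 15 and 30 µM held (adjusted p = 0.297, 0.709, 0.188 and 0.201). Without vehicle library 1 the values from 6 to 30 µM were 0.50, 0.54, 0.52 and 0.44 (adjusted p = 0.000948, 0.000271, 0.000298 and 0.000901), and without AA132 10 µM library 1 that at 10 µM was 0.56 (4.01e-05) and the slope 0.24 (4.09e-07).

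CCND1 was 28.7, 26.1 and 23.7 CPM at 30 µM, below all 3 vehicle libraries and above all 3 Tg libraries. The log2 fold change was -0.42 (SE 0.12, 95% interval -0.67 to -0.18, adjusted p = 0.027). It was -0.47 (0.0128) without vehicle library 1. The call was lost without vehicle library 3 (-0.36, adjusted p = 0.112), AA132 30 µM library 2 (-0.42, 0.081) or library 3 (-0.36, 0.114). A fit of only the 2 conditions compared also lost it (-0.42, adjusted p = 0.182). At 15 µM the libraries read 34.0, 33.2 and 27.8 CPM and overlapped vehicle (log2 fold change -0.15, adjusted p = 0.578).

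Below 10 µM, CCND1 means lay above vehicle, from 38.4 ± 4.81 CPM at 1 µM to 41.9 ± 5.71 CPM at 3 µM, with no call. The groups stood apart at 0.1 µM (43.99, 38.4 and 41.5 CPM) and 3 µM (38.6, 38.7 and 48.5 CPM), where libraries did not overlap vehicle for 7.28% and 11.2% of all genes. The slope was -0.20 in log2 per 10-fold dose (SE 0.05, adjusted p = 0.00199), and -0.19 without AA132 10 µM library 1 (0.00254). Without the 30 µM dose it was -0.12 (adjusted p = 0.0681) and no longer called.

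**Figure D3:**
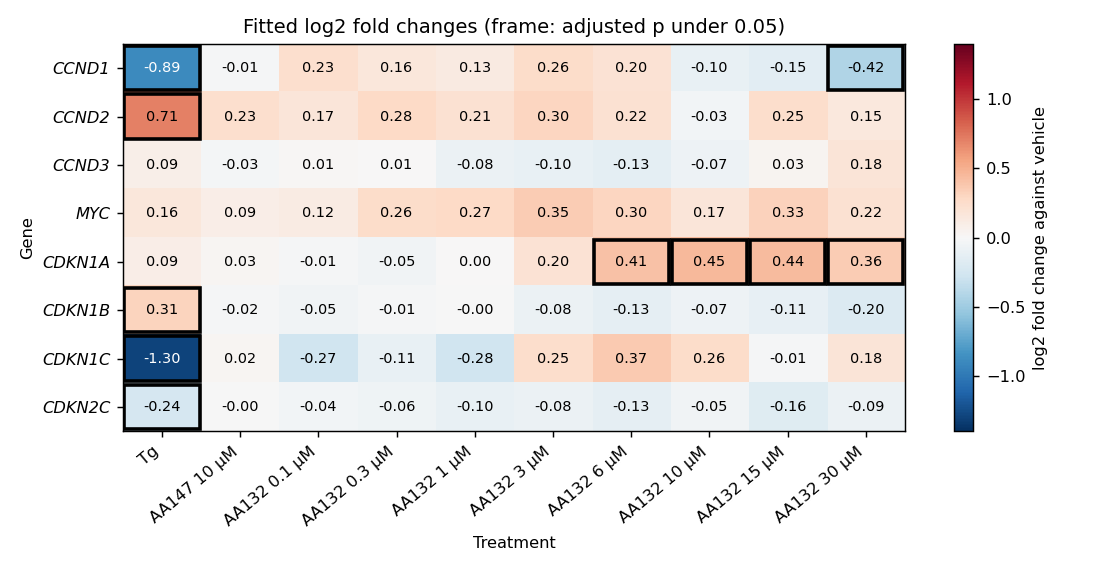
Fitted log2 fold change against vehicle for the 8 members (rows) under the 10 treatments (columns), with black frames where the adjusted p was under 0.05. Of the 10 framed cells, 5 are under Tg and 5 under AA132 at 6 µM or more, and CCND1 is the one gene framed under both.

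CCND2 and CCND3 were not called at any dose of AA132. CCND2 means ran from 7.51 ± 0.90 CPM at 10 µM to 9.47 ± 0.26 CPM at 3 µM, with log2 fold changes from -0.03 to 0.30. At 0.3, 3 and 15 µM its libraries all lay above vehicle, where libraries did not overlap for 8.25%, 11.2% and 16.1% of all genes. Its 30 µM libraries were spread widely, at 10.6, 8.33 and 6.72 CPM. CCND3 was 58.7, 59.4 and 59.1 CPM at 30 µM, the tightest group of the 11 conditions, and above every library of the other conditions but vehicle library 1. The log2 fold change was 0.18 (95% interval 0.01 to 0.35, adjusted p = 0.205), and it was called without vehicle library 1 (0.31, adjusted p = 0.00553).

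On the per-kilobase scale, the summed D cyclin level at 30 µM was 36.7 ± 0.81 CPM per kb (exact permutation p = 0.5 against vehicle). The share of CCND1 there was 16.8 ± 1.23% and that of CCND3 79.6 ± 1.98%, neither overlapping vehicle (exact permutation p = 0.1, the smallest possible). As parts of 1 whole these shares are not separate results, and the CCND3 level itself was not called. The log2 ratio of CCND1 to CDKN1A, both in CPM, was -0.891 ± 0.23 in vehicle and -1.11 ± 0.21 at 6 µM. At the 3 higher doses the ratio came to -1.44 ± 0.06, -1.49 ± 0.20 and -1.68 ± 0.22, each below all vehicle libraries. Under Tg the ratio was -1.87 ± 0.02. Of the 2 genes, CCND1 was the one called under Tg and CDKN1A the one called at 10 and 15 µM AA132.

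**Figure D4:**
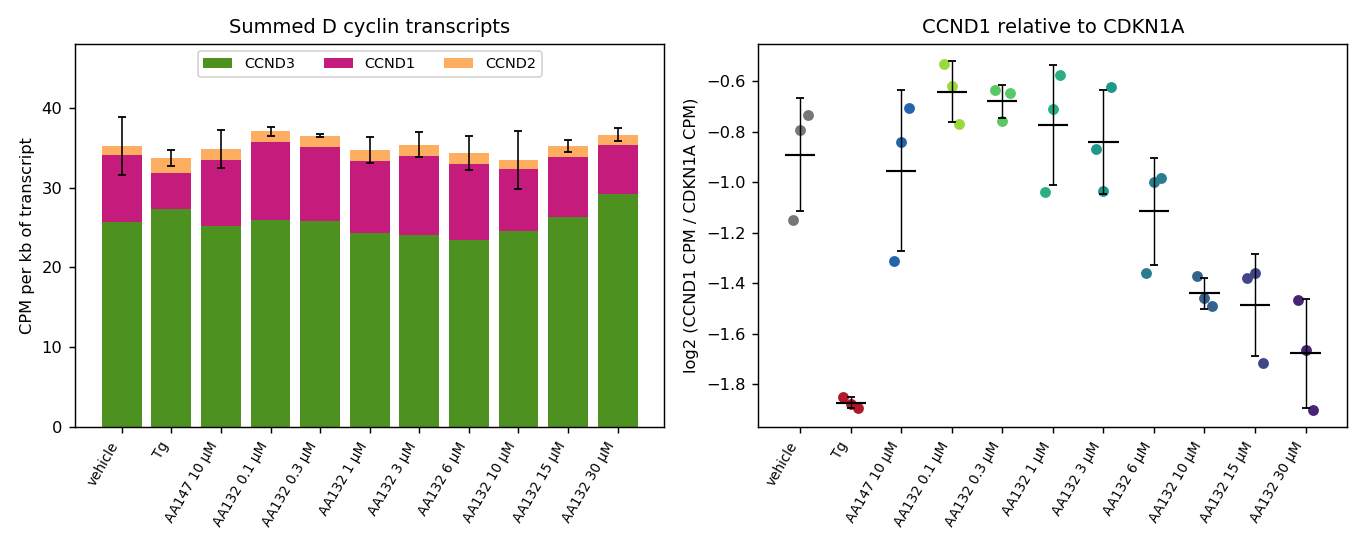
Left, mean CPM per kb of CCND3, CCND1 and CCND2 stacked by condition, with the SD of the sum over 3 libraries as bars. Right, log2 of CCND1 CPM over CDKN1A CPM in each library (points) with the mean (line) and SD (bars). The summed height stays between 33.5 and 37.0 CPM per kb while the CCND1 part is thinnest under Tg, and the ratio is lowest under Tg (-1.87) and 30 µM AA132 (-1.68).

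MYC had its lowest mean in vehicle (20.2 ± 1.08 CPM) and its highest at 3 µM AA132 (25.8 ± 3.23 CPM). The libraries at 0.3 µM (24.5, 25.2 and 22.8 CPM), 1 µM (23.8, 26.0 and 23.7 CPM), 3 µM (23.1, 29.4 and 25.0 CPM) and 15 µM (23.0, 27.0 and 26.1 CPM) all lay above vehicle. So did those at 0.1 µM, by less (21.7, 22.65 and 21.6 CPM, against 21.4 CPM in the highest vehicle library). Libraries without overlap were seen for 7.28% of all genes at 0.1 µM. At the other doses named, in rising order, the shares were 8.25%, 7.86%, 11.2% and 16.1%. No dose was called. The nearest was 15 µM, with a log2 fold change of 0.33 (SE 0.10, adjusted p = 0.0567), and DESeq2 called it (adjusted p = 0.0256). It was also called without vehicle library 2 (0.0438), AA132 3 µM library 2 (0.0459), AA132 6 µM library 1 (0.0451) or 2 (0.0442), or AA132 15 µM library 1 (0.0439). At 6 µM MYC was called without AA132 6 µM library 2 (log2 fold change 0.40, adjusted p = 0.0465). The slope over dose was 0.03 (95% interval -0.03 to 0.10, adjusted p = 0.526), so no trend with dose was resolved.

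CDKN1B was 36.0, 35.4 and 33.4 CPM at 30 µM, its lowest mean of the 11 conditions (log2 fold change -0.20, 95% interval -0.39 to 0.00423, adjusted p = 0.257). Its slope was -0.06 (adjusted p = 0.113), and it was called without AA132 10 µM library 1 (-0.07, 0.0277). CDKN1C means ran from 1.45 ± 0.29 CPM at 1 µM to 2.28 ± 0.60 CPM at 6 µM, and its slope was 0.21 (adjusted p = 0.0563). DESeq2 called that slope (0.0475), as did edgeR without AA132 0.3 µM library 3, 10 µM library 3, 15 µM library 1 or 3, or 30 µM library 2 (0.0278 to 0.0471). CDKN2C means stayed between 40.2 and 43.9 CPM over the 8 doses, with no call.

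AA147 was tested at 10 µM, the one dose it shares with AA132. None of the 8 members was called against vehicle, and none had an unadjusted p under 0.05. Over all genes 4 were called (0.0225%), 1211 had an unadjusted p under 0.05 and DESeq2 called 25, none of them a member. CCND1 was 28.1, 35.8 and 40.3 CPM under AA147, a wider range than that of vehicle (log2 fold change -0.01, 95% interval -0.26 to 0.23). CDKN1A was 69.8, 64.2 and 65.8 CPM (0.03, 95% interval -0.14 to 0.21). Without AA147 library 1 these values were 0.11 and -0.01, and no member was called. The widest interval was that of CDKN1C, -0.50 to 0.55.

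The direct comparison of AA132 with AA147 at 10 µM is the only pair of compounds at a matched dose. CDKN1A was called, higher under AA132 (log2 fold change 0.42, SE 0.09, 95% interval 0.25 to 0.60, adjusted p = 0.0425), where 0.0674% of all genes were called. All 3 AA132 libraries (73.9 to 99.2 CPM) lay above all 3 AA147 libraries (64.2 to 69.8 CPM). The call was not firm. It was lost without AA132 10 µM library 2 (adjusted p = 0.213) or 3 (0.263), without AA147 library 2 (0.254) or 3 (0.269), and without 1 of 14 libraries of other conditions, which enter through the shared dispersion (adjusted p = 0.0501 to 0.0616). A fit of only these 2 conditions lost it too (adjusted p = 0.888). The log2 difference stayed between 0.34 and 0.42 in all of these. Without either of the libraries that stood apart it was called, at 0.53 without AA132 10 µM library 1 (adjusted p = 0.000825) and 0.46 without AA147 library 1 (0.0415). For the other 7 members no difference was called, and the 95% intervals were -0.33 to 0.16 for CCND1, -0.55 to 0.01 for CCND2, -0.21 to 0.13 for CCND3 and -0.12 to 0.28 for MYC. They were -0.25 to 0.14 for CDKN1B, -0.28 to 0.76 for CDKN1C and -0.19 to 0.10 for CDKN2C.

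AA132 at 30 µM was then set against Tg directly. Here 5 members were called (3 higher and 2 lower under AA132), against 29.8% of all genes, and the libraries did not overlap for 7 members, against 46.8%. CDKN1C was higher under AA132 by 1.48 in log2 (SE 0.28, adjusted p = 0.000118), CCND1 by 0.47 (SE 0.12, 0.0039) and CDKN1A by 0.27 (SE 0.09, 0.0164). CDKN1B was lower by -0.51 (SE 0.10, adjusted p = 0.00013) and CCND2 by -0.56 (SE 0.14, 0.00177). The CDKN1A call was lost without AA132 30 µM library 3 (0.23, adjusted p = 0.0767). CCND3 (0.09), MYC (0.06) and CDKN2C (0.15, adjusted p = 0.105) were not called. The CCND1 fall was thus smaller under 30 µM AA132 than under Tg, and the CDKN1B and CCND2 levels of the 2 treatments differed by the test of the difference.

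Ordered by mean over the 11 conditions, most neighbours overlapped. In CCND1 and CDKN1C the one gap was between Tg, the lowest, and the next condition, and in CCND2 and CDKN1B it was between Tg, the highest, and the next. In CCND3 it was between 30 µM AA132, the highest, and the next. In CDKN1A it lay between 30 µM and 3 µM AA132, at 79.3 against 79.2 CPM in the nearest libraries. MYC and CDKN2C had no such gap among 10 neighbour pairs. The ratio of the highest to the lowest mean was 3.17 for CDKN1C, 2.22 for CCND1, 1.68 for CCND2, 1.42 for CDKN1A and CDKN1B, 1.28 for MYC, 1.24 for CCND3 and 1.18 for CDKN2C.

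Genes around the members were read from 5 lists drawn from general knowledge. In the G1/S list (29 genes for CDKs, cyclins E and A, E2F factors, RB family and other inhibitors), Tg gave 3 higher and 6 lower calls, 31% against 31.2% of all genes, with a median log2 fold change of 0.00613 against 0.00485 for all genes. CCNE1, the gene of cyclin E1 that partners CDK2, fell to 41.6 ± 0.28 CPM from 64.3 ± 4.05 in vehicle (-0.63 in log2, adjusted p = 7.57e-08). E2F2 (-0.46, adjusted p = 0.00951) and the INK4 inhibitor gene CDKN2B (-0.38, 0.00333) also fell, and CKS1B, which encodes a CDK subunit that helps degrade p27, rose (0.45, 0.000304). The E2F2 call was lost without Tg library 1 (adjusted p = 0.0626).

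The kinase partners of the D cyclins did not pass the test under Tg, with log2 fold changes of 0.01 for CDK4 (adjusted p = 0.96) and 0.37 for CDK6 (adjusted p = 0.268). Under 30 µM AA132 the G1/S list gave 0 calls of 29 with edgeR and 1 with DESeq2, against 7.05% of all genes, and 4, 2 and 1 without vehicle library 1, 2 and 3. On the slope it gave 1 higher and 6 lower calls, 24.1% against 18.7%, among them CDK6 (-0.23, adjusted p = 0.00721) and, upward, the INK4 gene CDKN2D (0.18, adjusted p = 0.00355). Against vehicle CDK6 was not called at any dose. Its log2 fold change was 0.62 at 0.1 µM (adjusted p = 0.987), 0.54 at 3 µM (0.482) and -0.08 at 30 µM (0.898).

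In the G2/M list (17 genes of mitotic cyclins, kinases and checkpoint proteins), Tg gave 0 higher and 6 lower calls. This was 35.3%, where 31.2% of all genes were called (15% lower). The median log2 fold change was -0.144 against 0.00485 for all genes. CCNB1, the gene of cyclin B1, fell from 366.8 ± 19.9 to 267.0 ± 3.39 CPM (-0.46, adjusted p = 5.58e-08) and the checkpoint kinase gene BUB1 by -0.26 (adjusted p = 3.02e-05). CDC25B (-0.26, adjusted p = 0.0114) and PLK1 (-0.22, 0.0103) fell too, but without vehicle library 1 neither was called (0.122 and 0.094), and that of CDC25B without Tg library 2 (0.0615). Under 30 µM AA132 CCNB1 was the 1 call of 17 (-0.20, adjusted p = 0.0199), 5.88% against 7.05% of all genes. The CCNB1 call was lost without vehicle library 1 (0.0758) or AA132 30 µM library 1 (0.105) or 2 (0.08), while 6 of the list were called without vehicle library 1.

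The MYC network list (17 genes: MYC partners, paralogs, antagonists and regulators) gave 4 higher and 2 lower calls under Tg. This was 35.3% against 31.2% of all genes, and 3 in all were called without vehicle library 1. Under 30 µM AA132 the list gave 0 calls, against 7.05% of all genes. That count was 1 by DESeq2, 2 without vehicle library 2 and 1 without AA132 1 µM library 1. MYCN, the paralog of MYC, fell from 2.81 ± 0.24 to 1.19 ± 0.40 CPM under Tg (-1.24, SE 0.26, adjusted p = 0.000334). The MAX dimerization antagonist gene MXD1 rose (0.68, adjusted p = 0.00685, lost without vehicle library 1 at 0.0796), as did HUWE1, a ubiquitin ligase gene (0.41, adjusted p = 0.000368).

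Of 18 MYC target genes, mostly of ribosome production, 2 were called higher and 4 lower under Tg (33.3%, against 31.2% of all genes). Without vehicle library 2, 10 in all were called. Under 30 µM AA132 none was higher and 8 were lower (44.4%, against 7.05% of all genes called and 3.19% called lower), with a median log2 fold change of -0.243 against -0.00132. The ribosome assembly genes RRS1 (-0.39, adjusted p = 0.011), BOP1 (-0.33, 0.0112), PPAN (-0.32, 0.00517) and MRTO4 (-0.31, 0.0107) were the 4 with the largest change. The count was 3 without AA132 30 µM library 1, where MRTO4 (0.0537) and BOP1 (0.0532) were lost, and BOP1 was also lost without vehicle library 1 (-0.16, 0.112). On the slope 0 were higher and 9 lower (50%, against 18.7% of all genes called and 8.89% called lower). That count was 5 without AA132 30 µM library 1 and 3 without the 30 µM dose. MYC itself was not called in any of these comparisons. Under Tg the 4 named were RRS1 (-0.47, adjusted p = 0.000368), NOP56 (-0.41, 1.38e-05) and LDHA (-0.40, 3.91e-05), which fell, and the spermidine synthase gene SRM, which rose (0.43, 0.00154).

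CDKN1A is a p53 target, and 20 other p53 target genes were listed after removing some regarded as shared with the integrated stress response. The removal may be incomplete, and whether the genes kept, BBC3 among them, responded through p53 was not tested. Under Tg 4 were called higher and 2 lower (30%, against 31.2% of all genes), and 3 in all without Tg library 3. BBC3 (0.76, adjusted p = 0.000102) and MDM2 (0.50, 0.0343) were higher, and PLK2 (-0.51, 0.000142) and BAX (-0.32, 0.00674) lower. With vehicle library 1 left out, neither MDM2 (0.18, adjusted p = 0.317) nor BAX (-0.16, 0.135) was called, and MDM2 also lost its call without any 1 Tg library (0.0668 to 0.0899). BBC3 and BAX encode proteins that promote apoptosis, MDM2 the ligase that degrades p53.

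Under AA132, calls in the p53 target list were all in the direction of CDKN1A. The doses of 3, 6, 10, 15 and 30 µM gave 1, 2, 3, 2 and 4 higher calls of 20, or 5%, 10%, 15%, 10% and 20%, with 0 lower at each. The share of all genes called higher was 0.101%, 0.866%, 1.03%, 1.97% and 3.86%. The call at 3 µM, where CDKN1A was not called, was AEN (0.37, adjusted p = 0.0351). At 30 µM AEN, a nuclease gene, rose from 45.9 ± 2.98 to 62.2 ± 3.28 CPM (0.44, adjusted p = 0.000273). FAS, a death receptor gene, rose by 0.43 (adjusted p = 0.00299) and BBC3 by 0.60 (0.00782), the latter lost without vehicle library 2 (0.41, 0.0694). A fit of only the 2 conditions compared lost the calls of AEN (adjusted p = 0.106), FAS (0.156) and BBC3 (0.228). AEN was also above vehicle, without a call, under AA147 (0.29, adjusted p = 0.251) and Tg (0.19, 0.0548). The remaining 16 genes were not called at 30 µM. Among them were MDM2 (0.38, adjusted p = 0.232), BAX (0.05, 0.83) and PLK2 (0.001, 0.999), which had been called under Tg. On the slope 11 of 20 were called, all higher (55%, against 9.83% of all genes), with a median slope of 0.0876 against 0.00141. The steepest were BBC3 (0.28, adjusted p = 4.87e-06) and FAS (0.23, 4.68e-07), beside 0.23 for CDKN1A. The lists were chosen with results of these data known, so the counts describe them and no test compares them with other genes.

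For each member, the 2 genes most like it were found among 2468 candidates with a mean of at least 5 CPM, by Pearson's r of mean log2 CPM over the 11 conditions. Vehicle is 1 of the 11 points. With the 2 highest taken from 2468 candidates over 11 points, high values of r arise from the selection too, and r was not tested. For members that moved under Tg, r rests partly on that 1 condition, so r is also given without Tg. CCND1 was most like CGN (cingulin, r = 0.984, 0.963 without Tg) and PCDH7 (a protocadherin, 0.983 and 0.966). CDKN1A was most like JUND (an AP-1 subunit, 0.979 and 0.978) and HSPB8 (a small heat shock protein, 0.97 and 0.972). CGN had log2 fold changes of -1.16 under Tg and -0.53 at 30 µM AA132, PCDH7 -0.90 and -0.37, and CCND1 -0.89 and -0.42. JUND had 0.04 and 0.34, HSPB8 0.17 and 0.52, and CDKN1A 0.09 and 0.36.

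CDKN1B was most like AARSD1 (0.971, 0.856 without Tg) and SRP72 (0.965 and 0.824), CCND2 most like JMY (0.954 and 0.842) and CECR2 (0.95 and 0.827), and CDKN1C most like IGSF8 (0.972 and 0.872) and HSPB1 (0.967 and 0.861). These values dropped without Tg. The members with the least spread (SD of 0.0693 for CDKN2C, 0.0899 for CCND3 and 0.107 for MYC in mean log2 CPM) had lower values over the 11 conditions. These were GALNT16 (0.94, 0.89 without Tg) and C4orf3 (0.931 and 0.856) for CDKN2C. For CCND3 they were the mitochondrial ND4 (0.91 and 0.917) and ND3 (0.896 and 0.885), and for MYC IRGQ (0.881 and 0.879) and AFF1 (0.841 and 0.842).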

How the data were processed

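RNA-seq of 33 libraries was analysed from the authors' deposited table of expected counts (estimated read totals per gene, not scaled). There, 0.009 stands for 0, in 43.5% of cells. The build was GRCh38.p7 per the submitters' processing notes, and the aligner, counter, annotation and use of strand are not given in the sources used here. The floor was set to 0, 98 entries sharing 45 names were summed, and counts were rounded.

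All 11 conditions entered 1 fit in edgeR 4.0.16 (R 4.3.3), with TMM scaling, the edgeR filter on low counts (17793 genes kept) and no replicate block. Quasi-likelihood F-tests were adjusted by Benjamini-Hochberg over all genes and called at 0.05. A slope on log10 dose used the 24 AA132 libraries. CPM are TMM-scaled, ± is the SD, and log2 CPM carry a prior count of 2. D cyclin shares used exact permutation tests. The fit was tested on simulated data with 1 dispersion for all genes and no library that stood apart, unlike the real data. Of 200 genes changed 1.3, 1.5 or 2-fold under Tg, 25%, 66.5% and 91% were called against vehicle. Of 200 changed by these folds per 10-fold dose, 97.5%, 100% and 100% were called on the slope. Differences from vehicle near 1.3-fold were thus often missed there. Of the genes called in these runs, 1.96%, 7.64% and 5.21% were unchanged genes for Tg against vehicle. On the slope 4.88%, 5.21% and 6.54% were.

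Gene positions and transcript lengths were taken from GENCODE v44 (GRCh38) and did not enter the counts. Named genes were the members, in each list up to 4 called genes with the largest change, at least 1 CPM and no overlap under Tg or 30 µM AA132, and the 2 genes most like each member. A gene that this rule names is not reported here. CDK4, CDK6, CDKN2D, slope values of list genes and the 30 µM AA132 values of MDM2, BAX and PLK2 were chosen after their values were seen. Likeness also needed an SD of at least 0.15. Alternatives were DESeq2 1.42.0, its size factors (RLE), no filter, a fit of only the conditions compared, a replicate block, the slope without 30 µM, and leaving out each library. Members and lists were chosen with earlier results of these data known.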

Additional observations from a re-analysis of the deposited data

How the results depend on the processing

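No member value with a call changed direction under any alternative. Fitting only the 2 conditions compared cut the number of members called to 3 under Tg (from 5) and to 0 at 6, 10, 15 and 30 µM AA132 and for AA132 against AA147. Over all genes it called 3073 under Tg (from 5551), 25, 8, 46 and 74 at those doses (from 190, 250, 491 and 1255) and 0 for AA132 against AA147 (from 12). For 30 µM AA132 against Tg it called more, 6 members (from 5, with CDKN2C added at adjusted p = 0.0471) and 6238 genes (from 5305). In the lists it gave 5, 2, 3 and 2 calls under Tg for G1/S, G2/M, MYC network and p53 target genes, and 0 MYC or p53 target genes at 30 µM AA132. DESeq2 called 2 members at 15 µM, where the main count is 1, and 344, 492 and 802 genes at 6, 10 and 15 µM. The slope without the 30 µM dose called 1 member and 2046 genes (from 2 and 3286). Without the filter, 82, 33, 25, 46 and 153 genes were called for AA147 and for AA132 at 0.1, 0.3, 1 and 3 µM. Leaving out single libraries gave 4 to 5 members under Tg, 0 to 2 at 6 µM, 1 at 10 µM, 1 to 2 at 15 µM, 1 to 3 at 30 µM, 0 to 1 for AA132 against AA147, 4 to 5 for 30 µM AA132 against Tg and 2 to 3 on the slope. Over all genes it gave 0 to 15 for AA147, 0 to 85, 95 to 505, 156 to 651, 267 to 920 and 699 to 2015 for AA132 at 3, 6, 10, 15 and 30 µM, and 0 to 77 for AA132 against AA147. The CCND1, CCND2 and CDKN1C calls under Tg held in all 38 alternatives. On average, numbers did not pair the libraries (mean correlation 0.00306 between same-numbered libraries of different conditions, with 13 of 33 best with their own number). The 165 pairs ran from -0.147 to 0.183, and a mean over them cannot tell whether some conditions were paired. With a replicate block, 5 members were called under Tg and 5572 genes, and no member's call changed. The cause of these changes was not tested. Depth limits CDKN1C most, with 20 to 107 counts per library.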
